A study of Mus musculus with 6 samples.

Results

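Sertad4, Esm1, Alpl, Cldn4 and Upk1b are 5 mouse genes. All but Sertad4 are usually described in epithelium, blood vessels, bone or bladder lining. The 5 genes were chosen by their large fall on these same arrays after deletion of an enhancer of the proto-oncogene Myc. That fall is therefore described here without a test. They are 5 of the 19057 genes that the array annotation names with a single symbol, and 5 of the 10209 genes bright enough to be tested. Total RNA of 6 C57 BL6 mice was measured on Illumina bead arrays, with 1 array per mouse. The KO tamoxifen group held 3 N-Me knockout mice given tamoxifen at 3 mg/kg in corn oil, and the WT vehicle group 3 N-Me wild-type mice given corn oil alone. All 6 were injected intraperitoneally and processed at 40 h. N-Me is the name of the Myc enhancer that NOTCH1 binds, and the knockout is conditional, per the series' design text. Genotype and treatment changed together, so their effects cannot be told apart, and neither the promoter that drives the recombinase nor the tissue is given in the sources used here. Myc itself, on a normalized log2 scale, was at 7.16 ± 0.24 in KO and 8.91 ± 0.15 in WT (SD, n = 3 each), a log2 difference of -1.75 ± 0.16 (SE, limma's adjusted p = 0.000406). These values are from the brighter of 2 Myc probes, and the other is not reported here. The arrays detected 18215 to 19486 of 45281 probes each, and precision is limited by there being 3 arrays per group.

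The MYC protein is a transcription factor that, with its partner MAX, promotes growth and metabolism, and in developing T cells its gene is switched on by NOTCH1 through distant enhancers. The 5 genes have unlike roles. Sertad4 encodes a protein with a SERTA domain, a motif shared with regulators of E2F-dependent transcription. Esm1 encodes endocan, a secreted proteoglycan with a dermatan sulfate chain that endothelial cells make in response to VEGF. Alpl encodes the tissue-nonspecific alkaline phosphatase, which is tethered to the cell surface by a GPI anchor, permits bone mineralization and dephosphorylates the active form of vitamin B6. Cldn4 encodes claudin-4, a tight-junction protein of epithelia that has also been described in mouse thymocytes and in medullary thymic epithelium. Upk1b encodes uroplakin 1b, a tetraspanin that pairs with uroplakin 3a in the plaques of the urothelium.

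Promoter sequences of 4 of the 5 genes were matched in RefSeq (build GRCm38.p6) and are shown because the 4 genes were low in the same arrays and the factor at the centre of the study, MYC, binds a short DNA word. Each runs 5′ to 3′ on the gene's own strand, from 250 bases before to 50 bases after the outermost annotated start. Capitals mark every CANNTG, the general E-box, and every TGGGAA on either strand, the core bound by the NOTCH1 partner RBPJ. In these 4 sequences the marked words do not overlap.
Sertad4 promoter, chr1:192855703-192856002, minus strand: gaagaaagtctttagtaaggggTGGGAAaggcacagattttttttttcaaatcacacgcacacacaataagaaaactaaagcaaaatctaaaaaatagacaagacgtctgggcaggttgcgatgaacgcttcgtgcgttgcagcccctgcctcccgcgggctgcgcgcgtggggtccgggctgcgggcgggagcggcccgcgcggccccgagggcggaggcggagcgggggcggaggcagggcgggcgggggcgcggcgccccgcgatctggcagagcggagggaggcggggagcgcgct
Esm1 promoter, chr13:113209409-113209708, plus strand: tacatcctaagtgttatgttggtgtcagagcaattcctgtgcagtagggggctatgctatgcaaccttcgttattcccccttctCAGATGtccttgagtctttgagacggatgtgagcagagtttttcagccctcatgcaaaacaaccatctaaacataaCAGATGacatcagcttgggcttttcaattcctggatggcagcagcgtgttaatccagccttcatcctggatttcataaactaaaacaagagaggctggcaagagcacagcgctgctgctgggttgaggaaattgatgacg
Alpl promoter, chr4:137796335-137796634, minus strand: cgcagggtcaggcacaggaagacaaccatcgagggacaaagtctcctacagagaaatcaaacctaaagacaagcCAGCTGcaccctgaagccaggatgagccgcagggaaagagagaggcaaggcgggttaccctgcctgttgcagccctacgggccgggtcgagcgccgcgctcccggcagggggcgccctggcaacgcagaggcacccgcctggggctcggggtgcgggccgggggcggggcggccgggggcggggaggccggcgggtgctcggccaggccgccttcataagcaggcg
Cldn4 promoter, chr5:134946885-134947184, minus strand: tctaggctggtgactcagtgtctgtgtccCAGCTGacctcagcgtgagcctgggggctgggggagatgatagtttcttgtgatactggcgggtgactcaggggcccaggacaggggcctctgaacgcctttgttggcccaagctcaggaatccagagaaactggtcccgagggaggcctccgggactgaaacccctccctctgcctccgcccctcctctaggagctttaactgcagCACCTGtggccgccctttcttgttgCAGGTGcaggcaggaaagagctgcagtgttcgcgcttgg

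The canonical MYC and MAX word CACGTG, which reads the same on both strands, occurs in 0 of these 4 windows and in 7.15% of all 32851 promoters of the same table and length. The general E-box CANNTG occurs in 3 of the 4 windows, all but that of Sertad4, and in 72.3% of all promoters. TGGGAA occurs, among these windows, only in that of Sertad4, 228 bases before the start, and in 25.6% of all promoters. Sertad4 and Alpl also have a second promoter at an inner start, not shown. That of Sertad4 holds 1 CANNTG and 1 TGGGAA, that of Alpl 3 CANNTG and 0 TGGGAA, and both hold 0 CACGTG. The shares over all promoters count such further starts too, while the 4 windows do not. The windows differ in composition, with a GC content of 64.7% for Sertad4, 46.3% for Esm1, 70% for Alpl and 61% for Cldn4, against a median of 52.7% over all promoters. A match is a description of letters and not a bound site.

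The array carries 7 probes for the 5 genes. Esm1, Alpl and Cldn4 have 1 probe each, and Sertad4 and Upk1b have 2. The brighter probe of each gene was detected on all 6 arrays, where detection is a deposited p-value under 0.05 for the probe being brighter than background. The second probes of Sertad4 and Upk1b were not detected on any array.

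For Esm1, the gene of endocan, the raw intensity was 212.7, 358.5 and 210.8 on the KO tamoxifen arrays 1, 2 and 3, against 1456.9, 762.7 and 1469.6 on the WT vehicle arrays 1, 2 and 3. WT vehicle 2 lay between the other WT arrays and the highest KO array, and the groups did not overlap. The detection p was 0.00107, 0 and 0.00107 on the KO arrays and 0 on each WT array.

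For Sertad4, the detected probe read 144.7, 179.9 and 165.9 in KO tamoxifen mice and 389, 554.4 and 542.1 in WT vehicle mice. All 3 KO arrays lay close together just above background, WT vehicle 1 was the lowest of its group, and the groups did not overlap. Detection p was 0.00534, 0.00107 and 0.00107 in KO and 0 on each WT array. The second Sertad4 probe read 103.7, 113.2 and 105.3 in KO and 123.6, 118.2 and 126 in WT, with a detection p of 0.62179 to 0.96474 in KO and 0.18269 to 0.43376 in WT, so it gives no measured level.

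Alpl read 151.4, 222.2 and 167.2 in KO tamoxifen mice and 386.2, 960.1 and 459.8 in WT vehicle mice. WT vehicle 2 was 2.49 times as bright as WT vehicle 1, the widest spread of raw signal among the detected probes within a group. Detection p was 0.00214, 0.00107 and 0.00107 in KO and 0 on each WT array. Alpl was thus highest of its group on the WT array on which Esm1 was lowest, and its KO and WT arrays did not overlap.

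Cldn4 read 144.2, 217.6 and 176.1 in KO tamoxifen mice and 464.6, 625.6 and 480.3 in WT vehicle mice. KO tamoxifen 2 was the brightest KO array, as it was for Esm1, Sertad4 and Alpl, and the groups did not overlap. Detection p was 0.00534, 0.00107 and 0.00107 in KO and 0 on each WT array.

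The detected Upk1b probe read 209, 196.6 and 175.8 in KO tamoxifen mice and 475, 659.8 and 626.3 in WT vehicle mice. Among the 5 genes it alone was brightest on KO tamoxifen 1 within its group, and the groups did not overlap. Detection p was 0.00107 on each KO array and 0 on each WT array. The second Upk1b probe read 103.5, 121.5 and 119.7 in KO and 110.5, 114.7 and 118.2 in WT, with a detection p of 0.3141 to 0.81944 in KO and 0.37286 to 0.81731 in WT.

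**Figure D1:**
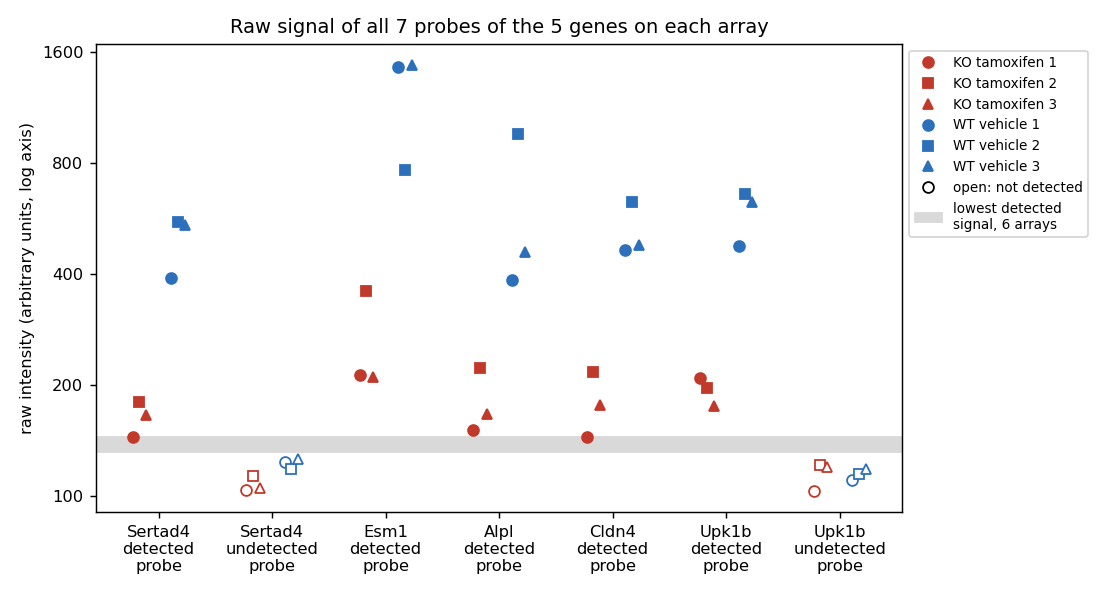
Raw intensity (log axis) of the 7 probes on each array, KO tamoxifen left of WT vehicle for each probe, with open symbols where the probe was not detected and a grey band for the lowest detected signals, 131.8 to 144.2 over the 6 arrays. The detected probes of all 5 genes lie lower on each KO array than on any WT array, and the second probes of Sertad4 and Upk1b lie below the band.

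The KO signals of 4 of the genes were close to the limit of detection. The dimmest signal called detected on an array was 131.8 to 144.2. KO readings of Sertad4 were 1.1, 1.25 and 1.16 times that limit on their own arrays, those of Cldn4 1.09, 1.52 and 1.23 times and those of Alpl 1.15, 1.55 and 1.16 times. Upk1b stood at 1.59, 1.37 and 1.22 times and Esm1 at 1.61, 2.5 and 1.47 times. All 5 genes therefore still had a detectable transcript signal in KO tamoxifen mice.

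The size of the difference was computed on a normalized log2 scale, after background correction, an offset of 16 and quantile normalization between arrays. Esm1 was at 7.17 ± 0.51 in KO and 10.03 ± 0.64 in WT (SD, n = 3 each), a log2 difference of -2.86, or 7.24-fold lower in KO. Sertad4 was at 5.90 ± 0.15 in KO and 8.59 ± 0.34 in WT, a log2 difference of -2.69. Alpl was at 6.17 ± 0.39 in KO and 8.78 ± 0.77 in WT, a log2 difference of -2.61. The WT spread was wider than the KO spread for all 3 of these genes.

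Cldn4 was at 6.15 ± 0.43 in KO and 8.70 ± 0.24 in WT, a log2 difference of -2.55. Upk1b was at 6.48 ± 0.44 in KO and 8.89 ± 0.27 in WT, a log2 difference of -2.41, or 5.33-fold lower in KO. Between the highest KO array and the lowest WT array the gap on the log2 scale was 2.18 for Sertad4, 1.97 for Cldn4, 1.59 for Upk1b, 1.57 for Alpl and 1.56 for Esm1. KO arrays lay wholly below WT arrays for 24.4% of all tested genes, and since the contrast chose the 5 genes nothing is read from their count. By size of fall they stood between the 6th and the 12th of the 10209 tested genes. Among those positions lay Rag1 at -2.80 and Ccdc169 at -2.61, and just after them came Slc23a4 at -2.41. In these whole samples, fewer cells of a type and less RNA per cell cannot be told apart.

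The differences were smaller on the scale without background correction, where Esm1 was at -2.21, Alpl at -1.65, Sertad4 at -1.59, Upk1b at -1.58 and Cldn4 at -1.57. Raw mean intensities, with background included, were 4.72 times as high in WT as in KO for Esm1 and 2.92 times for Cldn4. Esm1 had the largest difference on both scales with all 6 arrays, and the order of the other 4 genes depended on the processing. Its first place depended on the arrays too. Without WT replicate 1 it was at -2.68, against -2.91 for Alpl and -2.88 for Sertad4. Without WT replicate 3 it was at -2.66, against -2.75 for Alpl, and without KO replicate 3 at -2.64, against -2.71 for Sertad4.

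**Figure D2:**
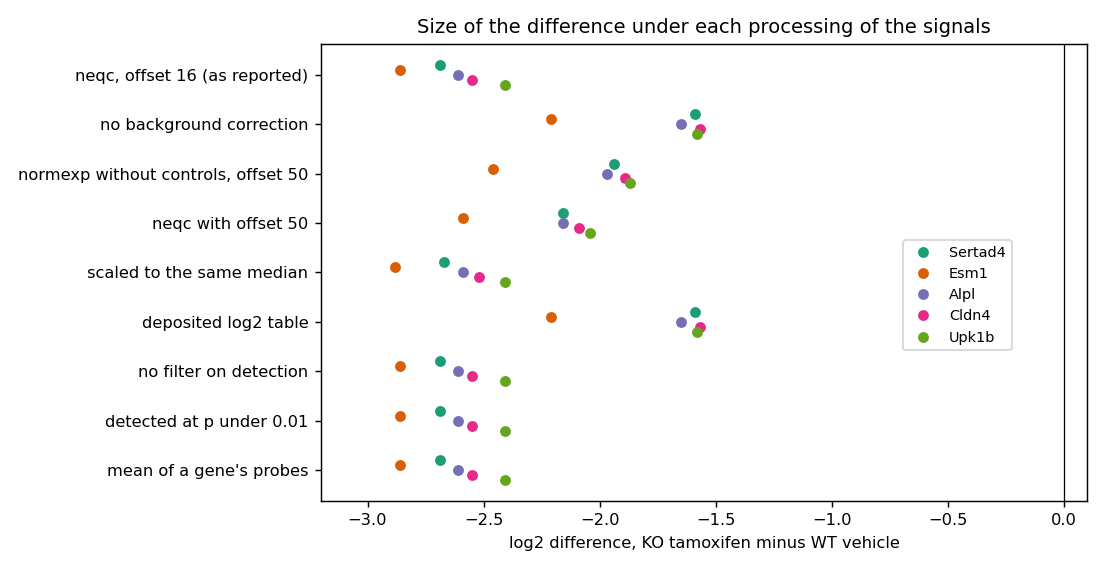
Log2 difference, KO tamoxifen minus WT vehicle, of each of the 5 genes (points) under the reported processing and 8 others (rows). Esm1 lies lowest in each row, all of which use the 6 arrays together, and the 5 values are nearest to 0 without background correction and in the deposited log2 table. These last rows hold the same processing. The rows with other detection filters or averaged probes repeat the reported values by construction.

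Within the groups the 5 genes did not vary as 1 block. Deviations from the group mean on WT vehicle 2 were -0.74 for Esm1 and 0.87 for Alpl, with 0.17 for Sertad4, 0.27 for Cldn4 and 0.15 for Upk1b. Without WT vehicle replicate 2 the log2 difference was -3.22 for Esm1 and -2.17 for Alpl. The WT spread of these 2 genes was wide among all tested genes, their SD standing at percentile 99.4 for Esm1 and 99.7 for Alpl. On KO tamoxifen 1, Upk1b was 0.51 above its group mean and Cldn4 0.44 below its own, at -0.44.

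Likeness of 2 genes was measured as the root mean square difference of their log2 profiles over the 6 arrays, each taken relative to its WT mean, so that a smaller value means a more similar pattern. Sertad4 and Cldn4 were the most alike of the 10 pairs, at 0.25, and Esm1 and Alpl the least alike, at 0.84. The value was 0.34 for Alpl and Cldn4 and 0.56 for Alpl and Upk1b.

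**Figure D3:**
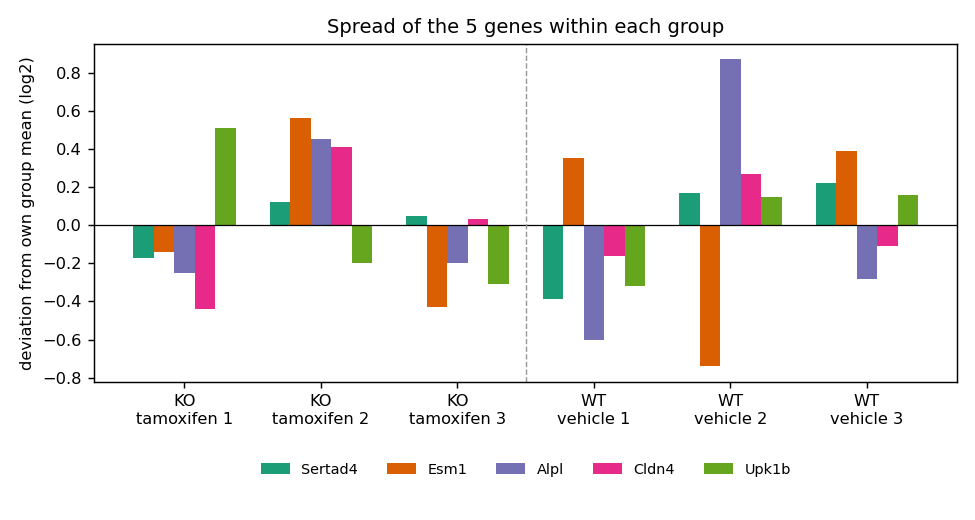
Deviation of each gene (bars) from its own group mean on the normalized log2 scale, by array, KO tamoxifen left of WT vehicle. On WT vehicle 2, Esm1 lies 0.74 below its mean and Alpl 0.87 above its own.

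The genes nearest in pattern to each of the 5, among all others tested, were these. For Esm1 they were Ccdc169 at a root mean square difference of 0.26, Ctla4, a brake on T-cell activation, at 0.30 and the MHC gene H2-T18 at 0.31, whose near-identical copies can share a probe. Ccdc169, Ctla4 and H2-T18 were, as Esm1, lowest on WT vehicle 2 within their group, at -0.51, -0.99 and -0.21 relative to their WT means. The choice by likeness used that array too and favours such genes, so nothing is read from this. For Sertad4 the nearest genes were Fibcd1 at 0.28, the serine hydroxymethyltransferase gene Shmt1 at 0.31 and the recombinase gene Rag1 at 0.34.

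For Cldn4 the nearest were Rag1 at 0.28, Fibcd1 at 0.30 and Gm266 at 0.32. Fibcd1, Gm266 and Rag1 were also nearest to Alpl, but farther off, at 0.42, 0.50 and 0.53. For Upk1b they were Slc23a4 at 0.21, the potassium channel gene Kcnq5 at 0.22 and Myzap at 0.23. The profile of a gene is set mainly by its fall, so these lists hold genes with falls of similar size.

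The relatives and partners of the 5 genes were not used to choose them and were tested in the fit over all genes (limma, Benjamini-Hochberg adjusted p under 0.05). Of all 10209 tested genes 17.1% were lower and 19.7% higher in KO by this rule, at a median log2 difference of 0. Of the 94 tested relatives and partners, 9 fell and 34 rose, at a median of 0.26. Without KO replicate 3 the count of rises was 20, and without WT replicate 1 it was 22. Over all genes 1748 fell, a count that was 1140 with WT replicate 1 left out and 1142 with WT replicate 3 left out.

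Of the 4 tested relatives in the SERTAD family, 0 fell by limma's adjusted p and 0 were lower at an unadjusted p under 0.05. Sertad1, Sertad2 and Sertad3 rose, and Cdca4, the remaining relative, was at -0.02 (adjusted p = 0.941), so that 3 of 4 rose at a family median of 0.76. Sertad3 was at 9.44 in KO and 8.53 in WT, a log2 difference of 0.92 ± 0.19 (SE, adjusted p = 0.00632). Sertad1 rose by 0.80 ± 0.23 and Sertad2 by 0.71 ± 0.14. The call of Sertad1 ended when KO replicate 2 or 3 or WT replicate 1 or 3 was left out (highest adjusted p = 0.092), and also with no filter on detection (adjusted p = 0.06).

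Of 21 other claudin and claudin-domain genes on the array, 12 were not detected on any array, among them Cldn3, which lies next to Cldn4 on chromosome 5. Of the 8 tested, 0 fell by limma's adjusted p (0 at an unadjusted p under 0.05) and 2 rose, at a median of 0.12. The rises were in Cldn5, the claudin of endothelium, by 0.52 ± 0.17 (SE) and in Cldn10 by 0.43 ± 0.13. Leaving out any single array other than KO replicate 2 ended the call of Cldn5 (highest adjusted p = 0.141), and leaving out KO replicate 1 or 3 or WT replicate 1 or 3 ended that of Cldn10 (highest adjusted p = 0.1). The call of Cldn5 also ended with no filter on detection (adjusted p = 0.0776). That of Cldn10 also ended without background correction, where it was at 0.24 (adjusted p = 0.055), in the deposited log2 table (0.0551), with probes of a gene averaged (0.0645), with trend and robust eBayes (0.0659) and with the replicate block (0.0562). Of 5 tested partners of claudins at the tight junction, the scaffold gene Tjp3 fell, at -0.86 ± 0.16, and Tjp1 rose by 0.62 ± 0.17. F11r, a junctional adhesion molecule, was undetected in WT throughout. Its KO level was higher by at least 1.54-fold on the normalized scale (adjusted p = 0.00496). The call of Tjp1 ended when KO replicate 3 or WT replicate 1 or 3 was left out (highest adjusted p = 0.0734). It also ended without background correction and in the deposited log2 table, where the difference was 0.26 in both (adjusted p = 0.059 and 0.0591). Occludin, the gene Ocln, was not detected on any array.

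Of the other uroplakins, which build the plaques with Upk1b, Upk2 and Upk3a were not detected on any array, and Upk1a was at 5.57 in KO and 5.83 in WT, a log2 difference of -0.26 ± 0.23 (SE, adjusted p = 0.402). Of 23 tested tetraspanins and uroplakins, 14 rose and 1 fell, at a median of 0.47, and 9 rose without WT replicate 1. The fall was in Tspan2, at 8.10 in KO and 9.5 in WT, a difference of -1.40 ± 0.21 (SE, adjusted p = 0.00193). The largest rises were in Rom1, known from photoreceptors, by 1.43 ± 0.15 and in the widely expressed tetraspanin Cd9 by 1.23 ± 0.24.

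The other alkaline phosphatase genes on the array, Alpi and Akp3, were not detected on any array. The vitamin B6 genes Pdxk and Pdxp, 2 of 3 tested in this list, fell, against a list median of -0.96. Pdxk, the kinase that activates it, was at 7.46 in KO and 8.42 in WT, a difference of -0.96 ± 0.12 (SE, adjusted p = 0.00106), and Pdxp, a phosphatase that inactivates it, at -0.99 ± 0.13. Of 24 tested genes of GPI anchor synthesis, 3 fell and 4 rose, at a median of -0.07. Pigb, a mannosyltransferase of the pathway, was undetected in KO throughout, and lower there by at least 1.35-fold on the normalized scale (adjusted p = 0.00447). Its call ended when WT replicate 2 was left out (adjusted p = 0.173), and it was not tested with detection set at p under 0.01. Pigq rose by 0.96 ± 0.21 and Pigz by 0.79 ± 0.16.

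Among 12 tested core proteins of proteoglycans, the class to which endocan belongs, 5 rose and 1 fell, at a median of 0.64. Bgn, the matrix proteoglycan biglycan, rose by 0.98 ± 0.15 (SE), Hspg2, the basement membrane protein perlecan, by 0.92 ± 0.26 and Sdc3, a syndecan, by 0.80 ± 0.14. The call of Hspg2 ended when KO replicate 3 or WT replicate 1 or 3 was left out (highest adjusted p = 0.082), and also with no filter on detection (adjusted p = 0.0586). The fall was in Sdc1, another syndecan, at -0.58 ± 0.13. Of 15 tested genes that build chondroitin and dermatan sulfate chains, 4 rose and 1 fell, at a median of 0.34. B3galt6, which makes the linker of the chain, fell, at -0.81 ± 0.17, and B3gat3, which completes it, rose by 0.72 ± 0.16, a call that ended when KO replicate 3 was left out (adjusted p = 0.0522). Chst11, a chondroitin sulfotransferase, was undetected in WT throughout and higher in KO by at least 1.79-fold on the normalized scale (adjusted p = 0.00232).

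**Figure D4:**
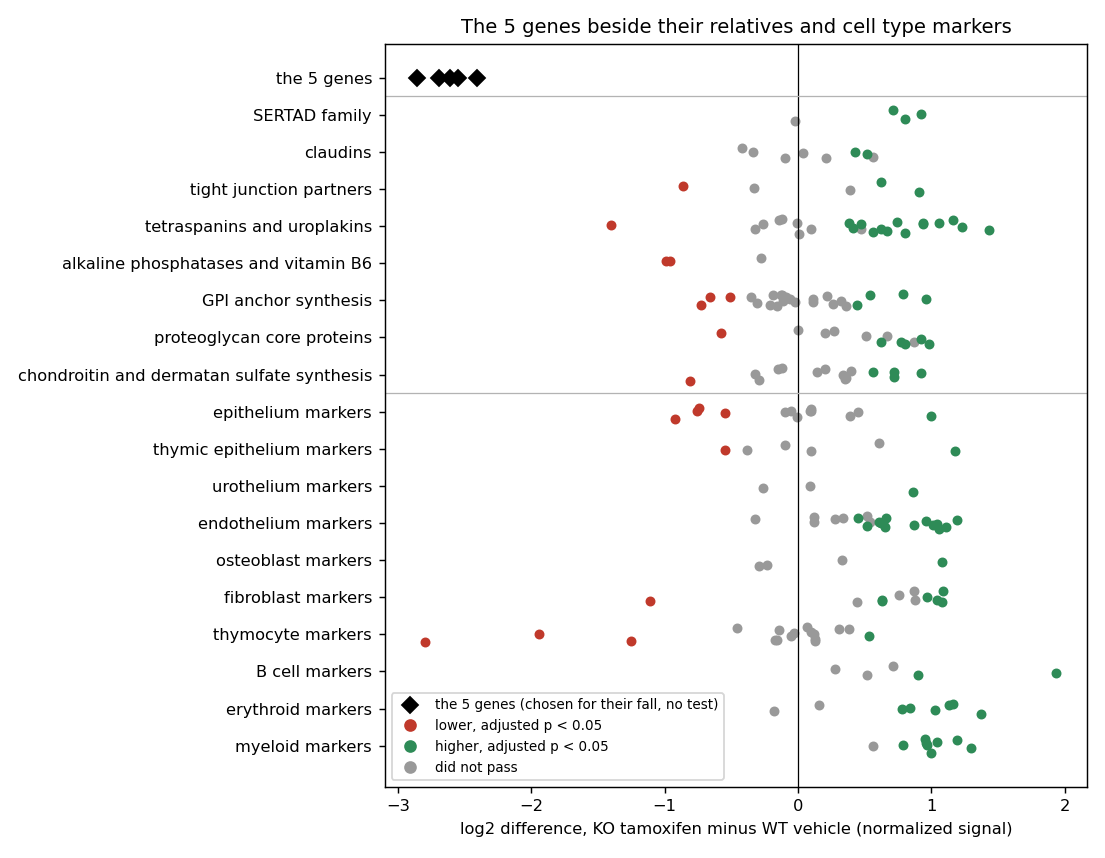
Log2 difference, KO tamoxifen minus WT vehicle, of the 5 genes (diamonds, no test) and of every tested gene (points) of 8 lists of relatives and partners and 10 lists of cell type markers. The 5 genes lie at -2.86 to -2.41, while the tested SERTAD relatives lie at -0.02 to 0.92, the claudin and claudin-domain genes at -0.42 to 0.56 and the endothelium markers at -0.32 to 1.19. The thymocyte marker Rag1, at -2.80, lies among the 5 genes.

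Markers of the cell types in which the 5 genes, other than Sertad4, are usually described were counted next, as measured values beside the falls. Over the 55 tested markers of epithelium, thymic epithelium, urothelium, endothelium, osteoblasts and fibroblasts, 6 fell and 23 rose, at a median of 0.52, and 14 rose without WT replicate 3. With all arrays that is 10.9% lower and 41.8% higher, against 17.1% and 19.7% of all tested genes. Endothelium is the cell type best known for Esm1. Of 21 tested endothelium markers, 14 rose and 0 fell by limma's adjusted p (0 lower at an unadjusted p under 0.05), at a median of 0.62. Angpt2, an angiopoietin, rose by 1.19 ± 0.15 (SE), Vwf, the von Willebrand factor gene, by 1.11 ± 0.14 and the transcription factor gene Sox18 by 1.06 ± 0.19. The mean of the 21 markers relative to WT was 0.74, 0.52 and 0.60 on the KO arrays and 0.06, 0.05 and -0.10 on the WT arrays. Kdr, the main VEGF receptor gene of endothelium, was not detected on any array.

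Of 28 epithelium markers on the array, 12 were not detected on any array, among them Epcam, Krt5, Krt18, Krt19 and Trp63. Of the 13 tested, 4 fell and 1 rose, at a median of -0.01. That is 30.8% lower and 7.69% higher, against 17.1% and 19.7% of all tested genes. Without background correction 3 fell. Cdh1, Krt7, Krt8 and Krt14 were detected on some arrays and did not pass. Their differences were 0.10 ± 0.16 (SE), 0.09 ± 0.21, 0.10 ± 0.51 and 0.39 ± 0.78. Rab25, a trafficking GTPase of epithelia, was undetected in KO throughout and lower there by at least 1.65-fold on the normalized scale (adjusted p = 0.00835). It was not tested with detection set at p under 0.01. Lamb3, a laminin chain, fell, at -0.76 ± 0.16 (SE), and Spint1, a protease inhibitor, rose by 1.00 ± 0.18. Evpl, at -0.55 ± 0.16, and Spint2, undetected in KO throughout, also fell. The mean of the 13 relative to WT was -0.01, -0.02 and -0.19 on the KO arrays and -0.02, 0.21 and -0.19 on the WT arrays, so the groups overlapped. Of 6 tested thymic epithelium markers, the chemokine gene Ccl25 fell, at -0.55 ± 0.14, and Cxcl12 rose by 1.18 ± 0.20. The call of Ccl25 ended when WT replicate 1 was left out (adjusted p = 0.0602), and also with probes of a gene averaged, where it was at -0.36 (adjusted p = 0.053). Of the 18 thymic epithelium markers on the array, 10 were not detected on any array, among them Foxn1, Aire and Prss16. Psmb11 and Kitl were detected, but on too few arrays to be tested. Krt8, Fezf2, Ly75 and Il7 were tested and did not pass, at 0.10, -0.10, -0.38 and 0.61.

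Of 9 urothelium markers, 5 were not detected on any array, and of the 3 tested only Pparg, also a gene of fat cells and macrophages, passed, with a rise of 0.86 ± 0.18 (SE). Of 4 tested osteoblast markers, Col1a1 rose by 1.08 ± 0.31, while Sp7, Bglap, Ibsp and Dmp1 were not detected on any array. Of 11 tested fibroblast markers, 6 rose and 1 fell, with Dpt at 1.09 ± 0.31 and Fbln1, a matrix glycoprotein, at -1.11 ± 0.14. The calls of Col1a1 and Dpt both ended when KO replicate 1 or 3 or WT replicate 3 was left out, and in addition that of Col1a1 without WT replicate 1 (highest adjusted p = 0.0859) and that of Dpt without WT replicate 2 (highest adjusted p = 0.095). Both calls also ended with no filter on detection (adjusted p = 0.0655 for Col1a1 and 0.0693 for Dpt). The part of changes in these cell types in the 5 falls was not tested.

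The samples carried the signal of T-lineage cells in both groups. Of 20 thymocyte markers on the array, 17 were tested, and 13 of these did not pass the test, at a median of -0.03. Cd3e was at 13.00 in KO and 13.05 in WT, a difference of -0.05 ± 0.12 (SE, adjusted p = 0.763), and Thy1 at 13.95 in KO and 13.83 in WT, a difference of 0.12 ± 0.12 (adjusted p = 0.443). The 3 that fell are genes of early, rearranging thymocytes. They were Rag1, at -2.80 ± 0.20 (SE), Ptcra, the pre-T-cell receptor alpha chain, at -1.94 ± 0.20, and Dntt, a polymerase of antigen receptor rearrangement, at -1.25 ± 0.18. The 1 that rose was Themis, a signalling protein of thymocyte selection, by 0.53 ± 0.12 (adjusted p = 0.0103). The probes for Cd8a, Cd5 and Rag2 were not detected on any array.

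Markers of other blood cells were counted in the same way, beside the 19.7% of all tested genes that rose. Of 9 tested myeloid markers 8 rose, led by C1qa at 1.30 ± 0.20 (SE), Lyz2 at 1.19 ± 0.22 and C1qb at 1.04 ± 0.19. Of 8 erythroid markers 6 rose, led by Gata1 at 1.37 ± 0.19, Ermap at 1.16 ± 0.24 and Klf1 at 1.13 ± 0.16. Of 5 B cell markers 2 rose, Cd22 by 1.93 ± 0.19 and Fcer2a, which was not detected on any WT array. The rise of Fcer2a was at least 1.81-fold on the normalized scale (adjusted p = 0.0271). The call of Fcer2a ended when KO replicate 3 or any single WT array was left out (highest adjusted p = 0.0826). It also ended without background correction and in the deposited log2 table, at 0.34 in both (adjusted p = 0.0576), and with no filter on detection (adjusted p = 0.0685).

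The 5 genes lie on chromosomes 1, 13, 4, 5 and 16, and their neighbours were tested because position was not part of the choice. Of the 30 tested genes nearest to them, 3 on each side of each gene, 3 fell and 4 rose, at a median of -0.06. That is 10% lower and 13.3% higher, both below the 17.1% and 19.7% of all tested genes. The nearest tested gene on a side is not always adjacent, and lay between 2.5 and 4075.5 kb away in GRCm38.p6. Without WT replicate 1, and likewise without WT replicate 3, 2 rose. Near Sertad4, Hhat, an acyltransferase for hedgehog proteins, fell, at -1.20 ± 0.21 (SE, adjusted p = 0.00319), and so did Utp25, a ribosome assembly factor, at -1.26 ± 0.14 (adjusted p = 0.000826). Hsd11b1, an enzyme of glucocorticoid activation farther out on the same side as Utp25, rose by 1.23 ± 0.12.

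Near Esm1, whose adjacent genes were not tested, Ccno, a cyclin family gene, fell, at -1.31 ± 0.18 (SE, adjusted p = 0.00143), Gpx8 rose by 1.35 ± 0.35 and Snx18 was at -0.18 ± 0.12 (adjusted p = 0.284). Beside Alpl, Rap1gap rose by 0.80 ± 0.17 and Ece1, on the other side, was at -0.15 ± 0.13 (adjusted p = 0.388). The nearest tested neighbours of Cldn4 did not pass, with Mettl27 at 0.00 ± 0.22 (adjusted p = 0.995) and Abhd11 at -0.26 ± 0.15 (adjusted p = 0.200). The genes adjacent to Upk1b, B4galt4 and Tex55, were not tested. The nearest tested gene on one side, Tmem39a, 181 kb away, was at -0.34 ± 0.12 (adjusted p = 0.0592). The nearest on the other, Zbtb20, 4075.5 kb away, rose by 0.59 ± 0.17 (adjusted p = 0.026). The call of Gpx8 ended when WT replicate 1 or 3 was left out (highest adjusted p = 0.0654), and that of Zbtb20 when KO replicate 2 or 3 or WT replicate 1 or 3 was left out (highest adjusted p = 0.0956).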

How the data were processed

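RNA of 6 mice was measured on Illumina arrays. Groups and replicate numbers came from the sample titles, which call the samples biological replicates. For each of 45281 probes the authors deposited an intensity and a detection p-value in 1 table, per the file headers. The scanner software is not given in the sources used here. Log2 values in a second table deposited by the authors were matched within 5e-05 by quantile-normalizing log2 of those intensities, with a median of 7.01 on each array, so its genes are not centred and its direction is settled. Columns left aside numbered 0.

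Raw intensities were normalized with neqc of limma 3.58.1 in R 4.3.3 (normal plus exponential background from detection p-values, offset 16, quantile, log2). Quantile normalization makes higher and lower relative to the other probes of an array. Probes detected at p under 0.05 on at least 3 arrays were kept (19082), and each gene was represented by its brightest probe. A single symbol was listed for 34885 probes, more than 1 for 18 probes and no symbol for 10378 probes, and 34807 identifiers matched the RefSeq table of GRCm38.p6. Each gene was tested with lmFit and eBayes, 2-sided, with group as the only term. Adjusted p-values are from this fit, except where an alternative or a left-out array is named. A gene undetected in a group is given as a bound, against the higher of its own signal and the lowest detected signal per array. Such a bound holds only on the normalized scale with all arrays. The adjusted p beside it is that of the difference without this floor. Without background correction the log2 differences were smaller than these bounds, at 0.32 for F11r, 0.33 for Chst11, 0.34 for Fcer2a, -0.33 for Rab25 and -0.26 for Pigb. The fit was tested on simulated data. It called 8.96% of genes simulated with a log2 change of 0.5, 67.2% at a change of 1 and 92.4% at 2. A gene that did not pass may thus still have changed by a small amount. Far fewer genes were changed there than were called in these data, so these shares are a rough guide.

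The 5 genes and the 18 lists were chosen with earlier results of these data known. Apart from the 5 genes, the text names Myc, up to 3 called genes of a list with the largest change (or 2 with the smallest p where none passed), called or nearest neighbours, and the 3 genes nearest in pattern to each of the 5. Other list genes, such as undetected or untested markers, markers that did not pass, Upk1a, Cdca4, Sdc1, Evpl, Spint2, Themis, Cd3e and Thy1, were named after their values were seen. Alternatives were other background corrections, offset, scaling, detection filters and probe rules, the deposited log2 table, a replicate block, trend and robust eBayes, and leaving out each array. Figures were drawn with matplotlib 3.10.9. Same-numbered samples had deviations from their group means that correlated across genes at 0.17, 0.12 and -0.08, so the numbers were not taken to pair the mice.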

Additional observations from a re-analysis of the deposited data

How the results depend on the processing

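All 5 genes stayed lower in KO under each alternative run, but the size depended on the background correction and on the offset. The detection filters, the averaging of a gene's kept probes and the replicate block could not change these 5 differences, so those runs are no check on them. Without background correction, and equally in the deposited log2 table, the log2 difference was -1.59 for Sertad4, -2.21 for Esm1, -1.65 for Alpl, -1.57 for Cldn4 and -1.58 for Upk1b. Normexp without controls and an offset of 50 changes both the background method and the offset. With it the difference was -1.94 for Sertad4, -2.46 for Esm1, -1.97 for Alpl, -1.89 for Cldn4 and -1.87 for Upk1b. With neqc and an offset of 50, which changes only the offset, it was -2.16 for Sertad4 and -2.59 for Esm1. In that run Alpl was at -2.16, Cldn4 at -2.09 and Upk1b at -2.04. The cause of the 5 falls was not tested. With single arrays left out the difference was -2.88 to -2.58 for Sertad4, -3.22 to -2.64 for Esm1, -2.91 to -2.17 for Alpl, -2.75 to -2.33 for Cldn4 and -2.67 to -2.26 for Upk1b.

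Leaving out single arrays gave 1140 to 1834 genes lower and 1354 to 2088 higher, 20 to 32 relatives higher and 7 to 11 lower, 14 to 26 markers higher and 4 to 7 lower, and 2 to 6 neighbours higher and 3 lower. Without background correction, and in the deposited log2 table, 5 neighbours were lower. Scaling to the same median gave 1619 genes higher and 1801 lower. With the replicate number as a block, 1697 genes were lower and 2016 higher, with the call of Cldn10 lost (adjusted p = 0.0562). The 5 differences were as reported, because a balanced block cannot change a difference of group means. The samples share only a number, and KO replicate 3 correlated best with WT replicate 2 (0.21). Of 53 other named genes followed through the alternatives, 0 changed sign and 13 lost their call at least once. Rab25 and Pigb were not tested with detection set at p under 0.01, which is not counted here as a lost call.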
